A study of Mus musculus with 21 samples.

Results

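The suppressors of cytokine signalling (SOCS) are a family of 8 intracellular proteins, encoded in the mouse by Cish and Socs1 to Socs7, and their transcripts were followed here in cells driven by an activated JAK2 kinase. The members were taken by name as a whole family, but with earlier results of these data known. All 8 were held by each of the 4 tables of expression values, among the 9973 genes that the 4 tables share. The cells were Ba/F3, a murine pro-B cell line whose parental cells depend on interleukin-3, made to express JAK2-V617F. The paper describes growth of Ba/F3 cells with JAK2-V617F as independent of that factor. Every group, controls included, carries this construct. There were 7 groups of 3 libraries (21 in all), and the unit is log2 CPM, the base-2 logarithm of counts scaled to library size (CPM) with a small constant added. The groups named treated (DMSO-treated, ruxolitinib-treated, CHZ868-treated) were collected after 6 h with solvent, with 1 μM of the type I JAK inhibitor ruxolitinib or with 1 μM of the type II inhibitor CHZ868. Ruxo-wash and CHZ-wash cells were exposed for 1 h to 1 μM inhibitor, washed 3 times with PBS and kept for 6 h without it, and each washout experiment had a DMSO-wash group of its own. Each inhibitor group was set against its own DMSO group, which for both inhibitors at 6 h is the same DMSO-treated group. Nothing in the sources says that the 3 libraries of a group came from separate cultures, so p-values measure the spread between these libraries, which may be technical.

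SOCS proteins are the classical negative feedback of the JAK-STAT pathway: a cytokine receptor activates JAK, JAK phosphorylates STAT, and STAT dimers switch on SOCS genes whose products damp the same receptor. Each has a central SH2 domain that binds phosphotyrosine and a C-terminal SOCS box that recruits elongins and cullin 5 into a ubiquitin ligase. SOCS1 and SOCS3 also carry a short region that inhibits JAK catalytic activity directly, CIS (the product of Cish) and SOCS2 act mainly at receptor phosphotyrosines, and SOCS4 to SOCS7 are better known from receptor tyrosine kinase and insulin signalling.

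In the GENCODE annotation of GRCm38, Cish (ENSMUSG00000032578.7) lies on chromosome 9 from 107296026 to 107302784 on the plus strand. Socs1 (ENSMUSG00000038037.5) lies on chromosome 16 from 10782240 to 10785536 on the minus strand, and Socs3 (ENSMUSG00000053113.3) on chromosome 11 from 117966079 to 117970047 on the minus strand. The starts of these genes are shown because STAT dimers bind TTCNNNGAA, and interferon regulatory factors bind GAAANNGAAA. RefSeq promoters of GRCm38.p6, from 250 bases before to 50 bases after the start, were held for Cish, Socs1, Socs3 and Socs4. Both strands were searched and the matches are in capitals. The Cish stretch (chr9:107296654-107296683, plus strand) begins 5 bases before the RefSeq start and lies in the first exon of a longer GENCODE transcript. The Socs1 stretch (chr16:10785537-10785696, minus strand) and the Socs3 stretch (chr11:117969367-117969526, minus strand) are the 160 bases before the RefSeq start. The Socs3 stretch lies before the coding transcript of GENCODE but inside the gene's span, which takes in non-coding transcripts that begin further upstream.
Cish: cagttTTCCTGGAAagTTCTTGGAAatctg
Socs1: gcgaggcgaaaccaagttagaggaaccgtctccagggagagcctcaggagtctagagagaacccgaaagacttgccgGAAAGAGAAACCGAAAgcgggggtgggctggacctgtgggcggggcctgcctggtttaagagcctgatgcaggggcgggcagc
Socs3: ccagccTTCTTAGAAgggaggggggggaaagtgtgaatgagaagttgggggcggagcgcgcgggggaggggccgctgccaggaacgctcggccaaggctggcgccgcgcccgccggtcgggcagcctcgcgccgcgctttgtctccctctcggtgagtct
The Cish window held 2 copies of TTCNNNGAA, at bases 1 to 9 and 12 to 20 from the start, and the Socs3 window held 1, from base -154 to base -146. At least 1 copy was found in 8.3% and at least 2 in 0.46% of 32851 promoters of the same length. The Socs1 window held 2 overlapping copies of GAAANNGAAA, from base -83 to base -68, where 3.44% of promoters held at least 1 copy and 0.23% at least 2. TTCNNGAA (8.52% of promoters) and TTCNNNNGAA (6.95%) were found in none of the 4 windows, and no motif was found in the Socs4 window. A match is a description of letters and says nothing of binding in these cells.

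The other members lie on chromosome 10 (Socs2, ENSMUSG00000020027.18, 95385362 to 95417180, minus strand), chromosome 14 (Socs4, ENSMUSG00000048379.9, 47276931 to 47296102, plus strand), chromosome 17 (Socs5, ENSMUSG00000037104.9, 87107679 to 87137839, plus strand) and chromosome 11 (Socs7, ENSMUSG00000038485.5, 97362551 to 97398542, plus strand). Socs6 is ENSMUSG00000056153.15. Exons of Cish overlap those of Gm17041 and Gm17040 on the other strand. The library kit marks strand but the counting is not stated to use it, so reads of Cish and of these genes may not have been told apart. Parts of the Socs2 transcript have a near-identical copy in the pseudogene Gm9847 (99.5% over 599 bases) and parts of the Socs6 transcript in Gm9449 (96.7% over 1006 bases), so the values of both members are uncertain where reads were shared.

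Depth was recovered for 3 of the 4 tables, in which all low values were whole reads once the constant was removed, and lay between 7880000 and 10670000 reads on the listed genes per library. The table with the ruxo-wash group did not give whole reads, which leaves its depth unknown. Between replicates, the variance of read counts was 2.17 to 14.4 times the sampling noise in 11 pairs. It was 23.7 to 38.5 times in the 4 pairs that include ruxolitinib-treated replicate 2 or replicate 3 of the DMSO-wash group run beside CHZ-wash. Values without these libraries are given with the results of those comparisons. Of 11 pro-B cell markers, only Cd79a and Cd79b were listed in the tables, and the other 9 were not analysed here. Their summed level was 28.7 to 33.6 CPM in DMSO-treated, 37.9 to 39.7 in CHZ868-treated and 38.2 to 44.4 in ruxolitinib-treated libraries. The erythroid markers Klf1, Hba-a1 and Epb42 summed to 388 to 419 CPM, 496 to 531 CPM and 537 to 854 CPM in the same groups. Of the myeloid and mast cell markers only Csf1r was listed at 6 h, at 7.09 to 11.8, 2.48 to 6.23 and 5.27 to 11.1 CPM, and T cell and stromal markers were not listed at 6 h. In the ruxolitinib washout the listed erythroid markers were Klf1, Hba-a1, Hbb-bs and Epb42. They summed to 3470 to 3570 CPM in ruxo-wash against 3970 to 4050 CPM in DMSO-wash libraries. In the CHZ868 washout only Klf1 and Hba-a1 were listed, summing to 250 to 323 CPM in CHZ-wash against 170 to 231 CPM in DMSO-wash. The sums of the 2 washouts cover different genes and cannot be set against each other. Of the 4 genes in the ruxo-wash sum, 1 was called lower by limma, among 3 genes called of 13085. No gene was called there without ruxo-wash replicate 1 or 3, or without any 1 DMSO-wash library. The CHZ-wash sum joins genes called in opposite directions, Klf1 (-0.57, adjusted p = 0.0323, limma) and Hba-a1 (0.79, adjusted p = 0.0377). Both calls end without CHZ-wash replicate 1 or 3, without DMSO-wash replicate 1 or without the mean-variance trend, where no gene was called. That of Hba-a1 also ends without CHZ-wash replicate 2, where no gene was called higher. The part of these marker differences in the results below was not tested. In bulk libraries, fewer cells with a transcript and less of it per cell cannot be told apart.

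Per kilobase of the longest coding transcript, Cish was the most abundant member in DMSO-treated cells, at 60.5 ± 1.91 CPM per kb (SD, n = 3). Socs2 (19.7 ± 1.25 CPM per kb) and Socs4 (19.1 ± 0.531 CPM per kb) came next and did not differ beyond their spread. Socs1 (7.94 ± 0.609 CPM per kb), Socs5 (7.35 ± 1.07 CPM per kb) and Socs7 (7.21 ± 0.456 CPM per kb) followed, with SD ranges that overlapped. Socs6 was at 4.67 ± 0.159 CPM per kb and Socs3 was the lowest, at 3.58 ± 0.0586 CPM per kb. With CHZ868, Socs1 moved from the 4th to the 8th place, at 0.162 ± 0.116 CPM per kb, and with ruxolitinib it was also the 8th, at 0.424 ± 0.119 CPM per kb. Cish stayed first in both, at 23.1 ± 2.27 CPM per kb with CHZ868 and 24.6 ± 0.604 CPM per kb with ruxolitinib. Which transcript was expressed was not measured, so the lengths, and with them this order, are approximate.

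**Figure D1:**
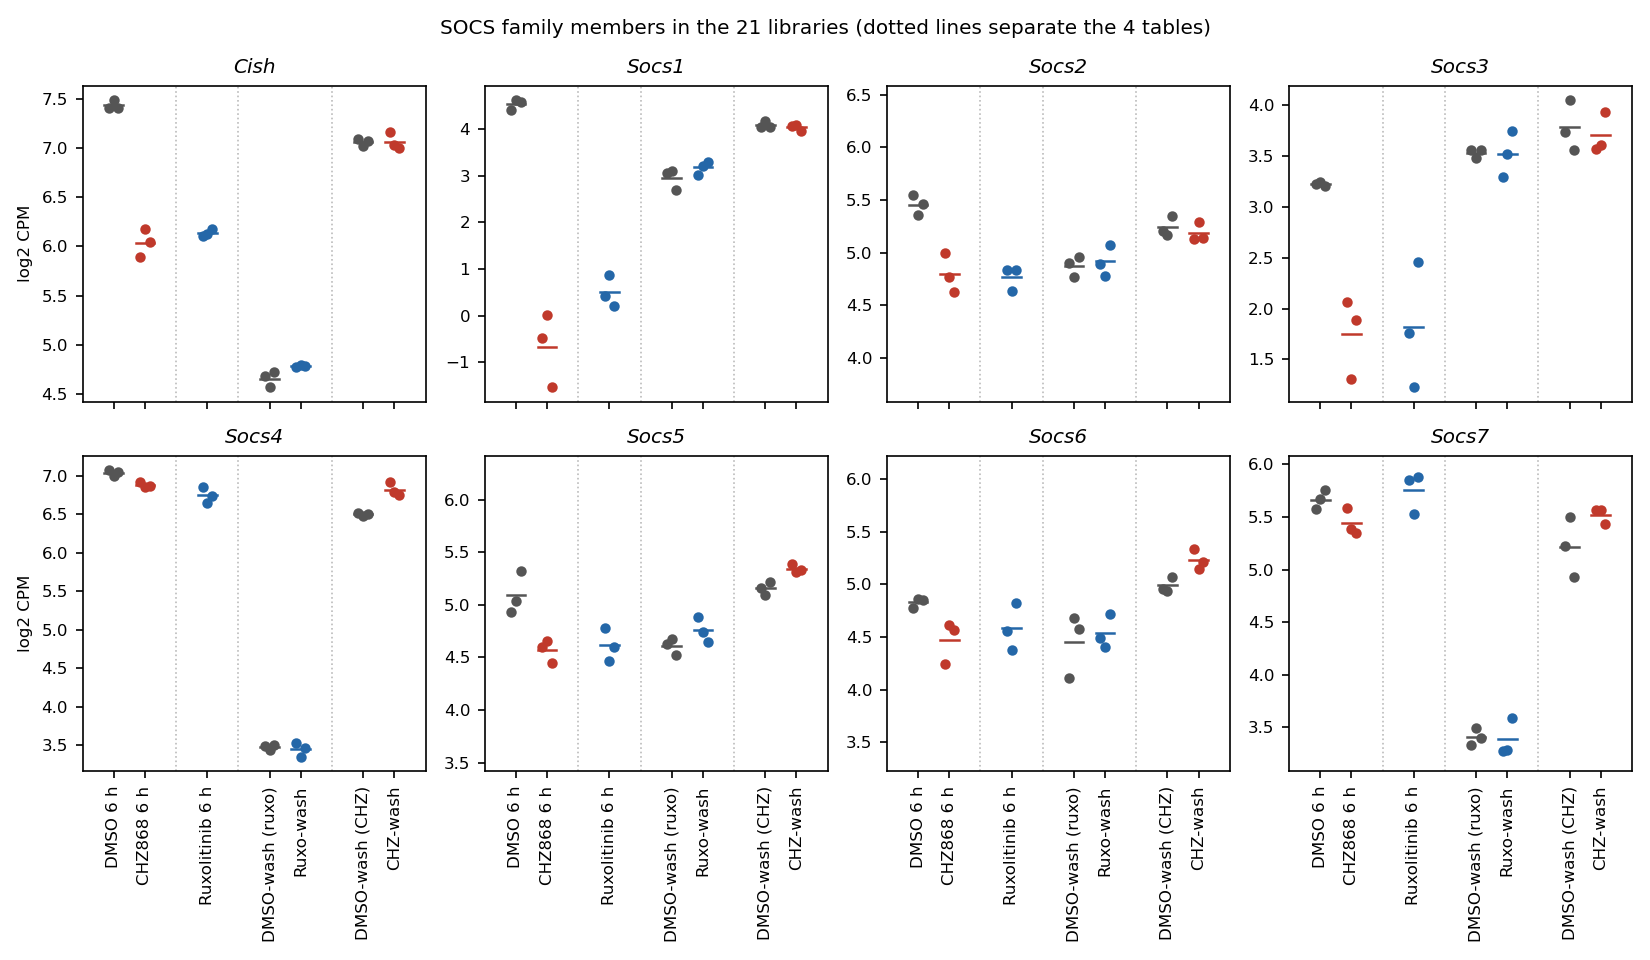
Log2 CPM of each member (1 panel each, every vertical axis spanning at least 3 log2 units) in the 21 libraries, grouped by treatment on the horizontal axis, with 1 point a library and a bar at the mean of 3. Dotted lines separate tables that were normalized separately. Socs1, Cish and Socs3 lie lower in both 6 h inhibitor groups than in DMSO-treated cells, and ruxo-wash and CHZ-wash cells lie beside their own DMSO-wash groups.

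The first question was which members respond to 6 h of JAK2 inhibition. After 6 h with CHZ868, 6 of the 8 members were lower than in DMSO-treated cells at an adjusted p under 0.05 and none was higher, where 26.4% of the 11670 genes tested were called lower. The 6 were Socs1, Socs3, Cish, Socs2, Socs5 and Socs6, in order of size. The median log2 difference of the members was -0.59, against -0.0084 over all genes. In 7 of 8 members every CHZ868-treated library lay below every DMSO-treated library, against 30.1% of all genes.

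Socs1, whose product inhibits JAK kinases directly, had the largest difference of the family. The DMSO-treated libraries held 184, 249 and 226 Socs1 reads (4.41, 4.62 and 4.59 log2 CPM), and the CHZ868-treated libraries held 5, 6 and 1 (-0.48, 0.03 and -1.53 log2 CPM). The 2 groups were far apart, with at most 6 reads in a CHZ868-treated library. The log2 difference was -5.20 ± 0.37 (SE), with a 95% interval from -6.00 to -4.41 and an adjusted p of 2.36e-08 by limma. Only 0.0171% of the genes tested had a more negative difference. In summed reads, Socs1 was at 23.2 CPM in DMSO-treated and 0.468 in CHZ868-treated cells, a 49.5-fold difference with an exact 95% interval from 28.2 to 96.4 that covers counting error only. When libraries were dropped singly, the log2 difference lay between -5.54 and -4.77, and with log2(CPM + 5) it was -2.36.

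Socs3, the other member with a kinase inhibitory region, was called lower from few reads. Its DMSO-treated libraries held 80, 95 and 85 reads (3.23, 3.25 and 3.20 log2 CPM), and its CHZ868-treated libraries held 40, 17 and 28 (2.07, 1.31 and 1.89 log2 CPM). The groups did not overlap, and the CHZ868-treated libraries were spread more widely (SD 0.40) than the DMSO-treated ones (SD 0.02). The log2 difference was -1.47 ± 0.27 (SE, 95% interval -2.04 to -0.90, adjusted p = 0.000302, limma), and the fold from summed reads was 2.76 (2.15 to 3.57). With log2(CPM + 5) the difference was -0.79.

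Cish, a direct STAT5 target whose product competes at receptor phosphotyrosines, had 7.41, 7.48 and 7.40 log2 CPM in DMSO-treated and 5.89, 6.18 and 6.04 log2 CPM in CHZ868-treated libraries. These values rest on 1481 to 1830 and on 528 to 597 reads, and Cish had the smallest SE of the members called lower. The log2 difference was -1.39 ± 0.08 (SE, 95% interval -1.56 to -1.23, adjusted p = 1.83e-09, limma), and the fold from summed reads was 2.65 (2.51 to 2.81). The overlapping genes on the other strand differed the same way, Gm17041 by -0.78 (adjusted p = 1.69e-05, limma) and Gm17040 by -1.21 (adjusted p = 0.000172, limma). Whether they share reads with Cish was not tested.

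Socs2, known for restraining growth hormone receptor signalling, had 5.55, 5.36 and 5.46 log2 CPM in DMSO-treated and 5.00, 4.77 and 4.62 log2 CPM in CHZ868-treated libraries. The groups did not overlap. The log2 difference was -0.66 ± 0.12 (SE, 95% interval -0.91 to -0.41, adjusted p = 0.000264, limma). Summed reads gave a 1.55-fold difference (1.42 to 1.70).

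The members better known from receptor tyrosine kinase signalling had the smallest log2 differences, and members were not tested against each other. Socs5, whose product acts on the EGF receptor, had a log2 difference of -0.53 ± 0.13 (SE, 95% interval -0.80 to -0.25, adjusted p = 0.00324, limma). This interval overlaps that of Socs2 (-0.91 to -0.41). Socs5 had 4.93 to 5.32 log2 CPM in DMSO-treated and 4.44 to 4.66 in CHZ868-treated libraries. Socs6, whose product binds KIT and insulin receptor substrates, was called lower by a narrow margin, with a log2 difference of -0.35 ± 0.13 (SE, adjusted p = 0.0352, limma). That call was kept in 2 of the 6 fits with one library left out (adjusted p 0.0226 to 0.111), and was lost with quantile normalization (-0.26, adjusted p = 0.101). Socs4, the close relative of Socs5, and Socs7, the close relative of Socs6, did not pass the threshold. Socs4 had a log2 difference of -0.16 (95% interval -0.29 to -0.02, adjusted p = 0.0504, limma) with groups that did not overlap, at 6.99 to 7.07 and 6.86 to 6.91 log2 CPM. It passed without CHZ868-treated replicate 1 (adjusted p = 0.0369) and with quantile normalization (-0.25, adjusted p = 0.00376). Socs7 had a log2 difference of -0.22 (95% interval -0.43 to -0.01, adjusted p = 0.0696, limma), its groups overlapped, and it passed without CHZ868-treated replicate 1 (-0.30, adjusted p = 0.0185).

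**Figure D2:**
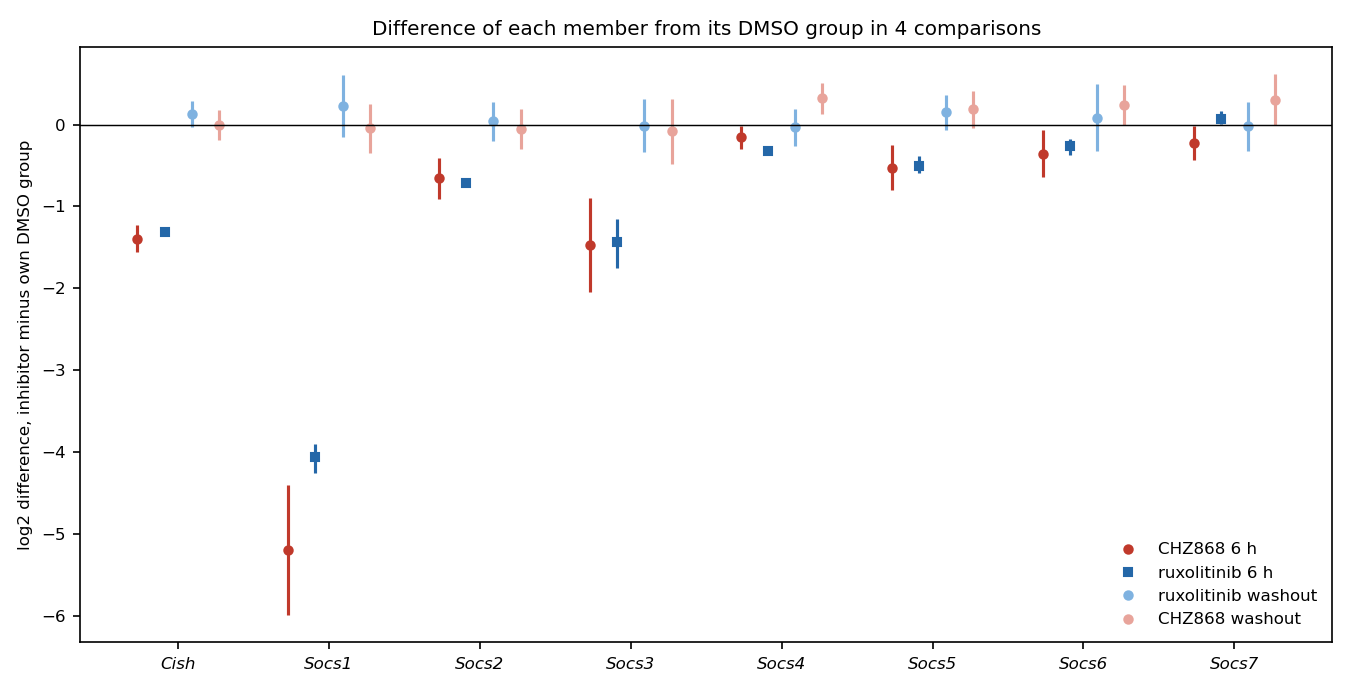
Log2 difference of each member (horizontal axis) from its own DMSO group in 4 comparisons, marked by colour. Vertical lines are 95% intervals of the limma fit, except for ruxolitinib at 6 h (squares, no test), where they run from the lowest to the highest value with one library left out. Socs1 is at -5.20 with CHZ868 and -4.06 with ruxolitinib, and all washout values lie between -0.08 and 0.32.

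Ruxolitinib-treated and DMSO-treated cells were deposited in separate tables, so their values were put on a common scale by subtracting each library's median over 11624 shared genes, and no test was run. The values are given beside those of CHZ868 because both inhibitors share the DMSO-treated group. In 6 of the 8 members (Socs1, Socs3, Cish, Socs2, Socs5 and Socs4) every ruxolitinib-treated library lay below every DMSO-treated library, against 20.1% of all genes. The count was also 6 without ruxolitinib-treated replicate 2, where the centred differences were -4.25 for Socs1, -1.32 for Cish, -0.65 for Socs2, -0.44 for Socs5, -0.28 for Socs4, -0.17 for Socs6 and 0.17 for Socs7. The median difference of the members was -0.61, and that over all genes was 0.0355.

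Socs1 again had the largest difference of the family. The ruxolitinib-treated libraries held 11, 16 and 9 Socs1 reads (0.42, 0.88 and 0.22 log2 CPM), all far below the DMSO-treated libraries, and the centred log2 difference was -4.06, between -4.25 and -3.90 with one library left out. In summed reads, scaled to the library sizes of each table and not centred, Socs1 was at 1.24 CPM in ruxolitinib-treated cells, 18.7 times less than in DMSO-treated cells (13.4 to 27.0, counting error only), where CHZ868-treated cells had 0.468 CPM. Each ruxolitinib-treated library held more Socs1 reads than any CHZ868-treated library.

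Cish had 6.11, 6.13 and 6.18 log2 CPM (670, 689 and 683 reads) with ruxolitinib and a centred difference of -1.32, beside -1.39 with CHZ868. Socs3 had 1.76, 1.23 and 2.46 log2 CPM, from 31, 21 and 50 reads, and a centred difference of -1.43, which was -1.15 without replicate 2. These Socs3 libraries were widely spread, yet all lay below the DMSO-treated ones. Socs2 had 4.84, 4.64 and 4.83 log2 CPM and a centred difference of -0.71. The centred differences of Socs5 (-0.50) and Socs4 (-0.32) came with groups that did not overlap. Those of Socs6 (-0.27) and Socs7 (0.07) came with groups that did, and Socs7 was the only member above 0 with ruxolitinib.

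**Figure D3:**
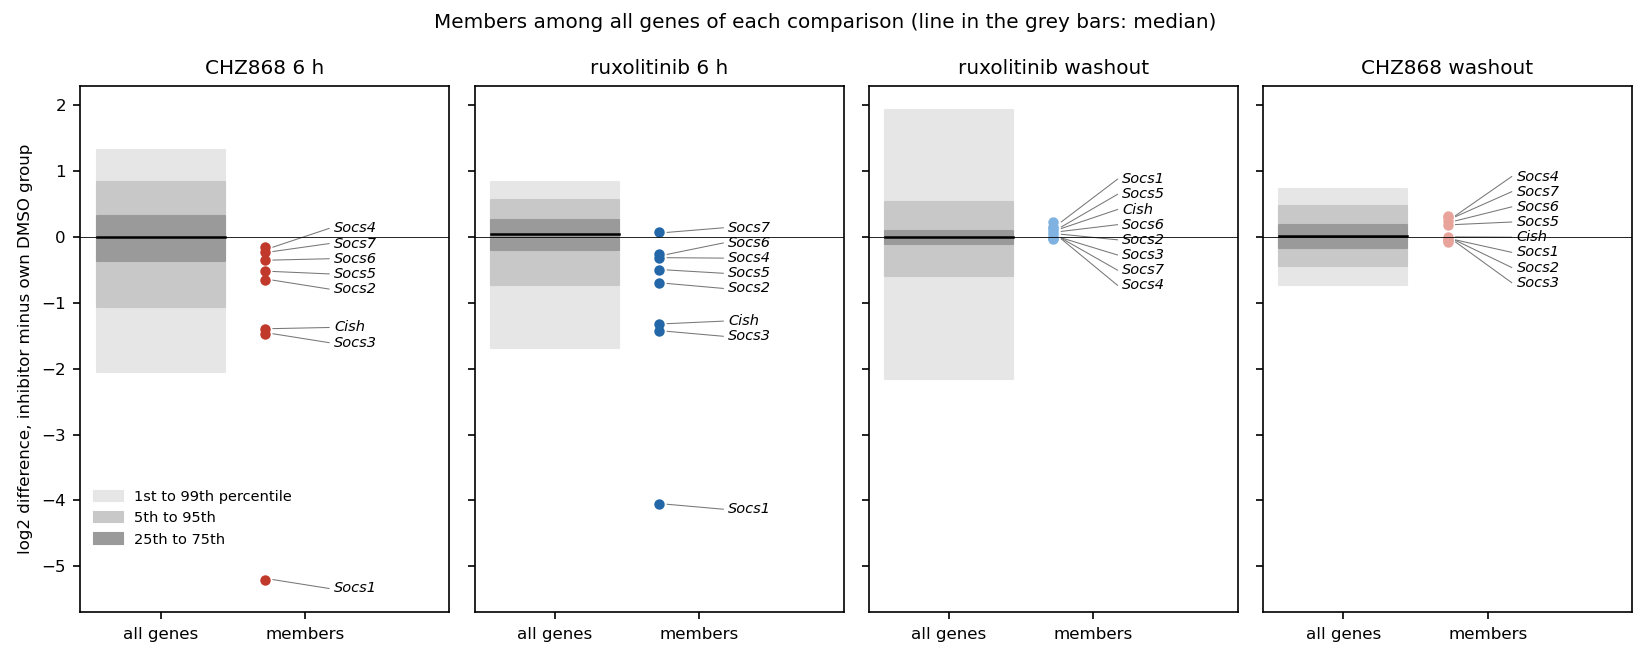
Log2 difference from the own DMSO group (vertical axis) of the 8 members (points, labelled) beside the spread over all genes of the same comparison (grey bars, percentiles as marked, line at the median), in 4 panels for 4 comparisons. At 6 h Socs1 lies below the 1st percentile of all genes (-2.05 with CHZ868, -1.69 with ruxolitinib), and Cish and Socs3 lie between the 1st and the 5th. In both washout comparisons all 8 members lie between the 5th and the 95th.

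The second question was whether the family differed from its controls 6 h after inhibitor had been removed. No library was taken at the end of the 1 h exposure, so whether the members had changed by then is not known. In ruxo-wash cells, 6 h after washout, none of the 8 members was called by limma in either direction, and none reached an unadjusted p under 0.05. Over all 13085 genes, 0.0229% (3 genes) were called and 920 had an unadjusted p under 0.05, so few genes of any kind passed in this comparison. The members had a median log2 difference of 0.061, against 0.0002 over all genes.

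Cish had 4.78, 4.79 and 4.78 log2 CPM in ruxo-wash and 4.68, 4.57 and 4.72 log2 CPM in DMSO-wash libraries. The ruxo-wash libraries all lay above the DMSO-wash ones, which held for 6.3% of all genes and for no other member. The log2 difference was 0.13 (95% interval -0.03 to 0.29, adjusted p = 0.759, limma). Socs1 had 3.03, 3.21 and 3.31 log2 CPM in ruxo-wash and 3.07, 3.10 and 2.69 log2 CPM in DMSO-wash libraries. Its groups overlapped, and its log2 difference of 0.23 (95% interval -0.15 to 0.61, adjusted p = 0.826, limma) was the largest of the family here. This interval does not reach the Socs1 difference of either inhibitor at 6 h.

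The other members lay between -0.03 and 0.15 on the log2 scale, with adjusted p from 0.776 to 0.990 by limma. Socs3 differed by -0.02 (95% interval -0.34 to 0.31) and Socs2 by 0.04 (95% interval -0.20 to 0.28), so differences as large as those at 6 h lie outside both intervals. Socs5 differed by 0.15, Socs6 by 0.08, Socs7 by -0.02 and Socs4 by -0.03. The intervals of Socs4 (-0.26 to 0.19), Socs6 (-0.33 to 0.49) and Socs7 (-0.32 to 0.28) include their CHZ868 6 h differences or come close to them, so for these members the comparison says little.

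In CHZ-wash cells none of the 8 members was called by limma, where 4.02% of the 11355 genes were called in either direction. At an unadjusted p under 0.05 there was 1 member, Socs4, beside 2767 of the 11355 genes, and limma-voom on the recovered reads also called none. The members had a median log2 difference of 0.093, against 0.0053 over all genes. In 3 of 8 members (Socs4, Socs5 and Socs6) every CHZ-wash library lay above every DMSO-wash library, against 14.9% of all genes.

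The members that fell furthest at 6 h lay close to their controls. Socs1 had 4.07, 4.08 and 3.96 log2 CPM in CHZ-wash (138, 154 and 138 reads) and 4.04, 4.17 and 4.04 log2 CPM in DMSO-wash libraries (160, 168 and 134 reads). The groups overlapped, and CHZ-wash cells had 96.6% of the DMSO-wash level in summed reads, scaled to depth. The log2 difference was -0.05 (95% interval -0.35 to 0.25, adjusted p = 0.864, limma). Cish had 7.16, 7.03 and 7.003 log2 CPM in CHZ-wash and 7.10, 7.02 and 7.07 log2 CPM in DMSO-wash libraries, with a log2 difference of -0.001 (95% interval -0.18 to 0.18). Beside it, the antisense gene Gm17041 was called lower in CHZ-wash cells (log2 difference -0.57, adjusted p = 0.04, limma). No gene of the table was called without CHZ-wash replicate 1 or 3, without DMSO-wash replicate 1 or without the mean-variance trend, so this call ends there. Socs3 (-0.08, 95% interval -0.48 to 0.32, and -0.19 without DMSO-wash replicate 3) and Socs2 (-0.05, 95% interval -0.30 to 0.19) also had groups that overlapped.

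Socs4 had 6.92, 6.78 and 6.76 log2 CPM in CHZ-wash and 6.51, 6.47 and 6.51 log2 CPM in DMSO-wash libraries, a log2 difference of 0.32 ± 0.09 (SE, 95% interval 0.13 to 0.51, adjusted p = 0.0575, limma) in the direction opposite to that at 6 h. It passed the threshold without DMSO-wash replicate 3 (0.33, adjusted p = 0.016), one of the libraries that stood apart, which made the count 1 of 8. Socs7 had 5.56, 5.57 and 5.44 log2 CPM in CHZ-wash and 5.22, 5.50 and 4.93 log2 CPM in DMSO-wash libraries, the lowest of these being replicate 3. Its log2 difference was 0.31 (adjusted p = 0.213, limma), falling to 0.16 without replicate 3 (adjusted p = 0.36) and reaching 0.45 without replicate 2 (adjusted p = 0.0457). Socs6 differed by 0.24 (adjusted p = 0.206) and Socs5 by 0.19 (adjusted p = 0.287).

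Whether effects differed was tested directly. The CHZ868 effect at 6 h was lower than the CHZ868 effect after washout for all 8 members, where 23.8% of 11175 genes were called lower. The difference of effects was -5.15 ± 0.40 for Socs1 (SE, adjusted p = 5.15e-08, limma), -1.39 ± 0.12 for Cish (adjusted p = 9.61e-08) and -1.39 ± 0.31 for Socs3 (adjusted p = 0.00136). For Socs5, Socs2, Socs6, Socs7 and Socs4 it lay between -0.71 and -0.48, with adjusted p from 0.00103 to 0.0211. Socs7 lost its call without DMSO-treated replicate 3 (-0.49, adjusted p = 0.0564). All 8 were called without DMSO-wash replicate 3, Socs3 at -1.28 and Socs7 at -0.39. With log2(CPM + 5) the difference of effects was -2.32 for Socs1 and -0.73 for Socs3. The 2 effects come from separate experiments that also differ in the length of exposure. Inhibitor removal by washing, exposure time and experiment therefore cannot be told apart here.

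Between the 2 washouts, none of the 8 members differed in effect by limma, where 1.9% of 10078 genes were called. Over all genes, 1903 had an unadjusted p under 0.05, and among the members 1 did, Socs4. When replicate 3 of the DMSO-wash group beside CHZ-wash was left out, none was called either, and Socs7 moved from -0.33 to -0.18. The ruxolitinib washout effect minus the CHZ868 washout effect was -0.36 for Socs4 (95% interval -0.61 to -0.10, adjusted p = 0.124), 0.27 for Socs1 (95% interval -0.16 to 0.71) and 0.13 for Cish (95% interval -0.09 to 0.34). The inhibitor and the experiment it was used in cannot be told apart, and the absence of a call does not show that the inhibitors act alike.

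The rest of the pathway gives the setting of the family. Its gene lists were chosen with earlier results of these data known. With CHZ868 at 6 h, 26.4% of all genes were called lower and 26.8% higher. Of 9 listed STAT5 target genes, all 9 were called lower in that comparison (median log2 difference -1.69). Among them were the kinase genes Pim1 (-3.20) and Pim2 (-2.56) and the cytokine gene Osm (-2.46). Of 12 listed interferon target genes, 11 were called lower and none higher (median -1.55), led by the ubiquitin-like modifier Isg15 (-3.50) and the transcription factors Irf1 (-2.40) and Irf9 (-1.92). With ruxolitinib, the centred difference was -2.84 (Pim1), -2.35 (Pim2) and -2.33 (Osm) in the first list, and -3.17 (Isg15), -2.30 (Irf1) and -1.93 (Irf9) in the second. Socs1 lay below every gene of these lists in both comparisons. After ruxolitinib washout none of the 9 and none of the 10 genes listed there was called by limma, where 0.0229% of all genes were called. In 5 of the 9 STAT5 target genes every ruxo-wash library lay above every DMSO-wash library, where 6.3% of all genes did. In 1 of the 9 every ruxo-wash library lay below. The median log2 difference of the 9 was 0.096, and Pim2 was at 0.35 (adjusted p = 0.218, limma). After CHZ868 washout 1 gene of these lists was called, Isg15, which was higher (0.68, adjusted p = 0.0331, limma), where 4.02% of all genes were called. That call ends where no gene was called, without CHZ-wash replicate 1 or 3, without DMSO-wash replicate 1 or without the trend. It also ends without CHZ-wash replicate 2, where the 1 gene called was lower.

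Of 11 listed cytokine receptor chains, 6 were called higher and 5 lower with CHZ868, where 26.8% of all genes were called higher and 26.4% lower. Among them were Il2rg, the common gamma chain, at 1.45, Il4ra at -1.01 and Ifngr1 at 0.48. Of 13 other negative regulators of the pathway, 4 were called higher and 3 lower, near these shares over all genes. Usp18, a brake on the type I interferon receptor, was at -2.46, the phosphatase gene Ptpn6 at 0.86 and the adaptor gene Sh2b3 at -0.81.

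The partners of the SOCS box were taken as 9 genes for elongins, cullins, their RING subunits and the neddylation proteins that serve them. Of these, 2 were called higher with CHZ868 at 6 h, Ube2m (0.60) and Ube2f (0.47), and none lower (median 0.12). In the same comparison 26.8% of all genes were called higher and 26.4% lower. Of 11 listed genes for other SOCS box proteins, 5 were called lower and 2 higher (median -0.36), among them Spsb2 (-1.20), Asb1 (-0.86) and Rab40c (-0.59). After CHZ868 washout Ube2m was lower (-0.49, adjusted p = 0.0316, limma) and 1 of 9 listed SOCS box proteins, Wsb1 (named after its values were seen), was higher (0.47, adjusted p = 0.0268). In that comparison 4.02% of all genes were called in either direction. The calls of Ube2m and Wsb1 both end in the same 4 fits that called no gene. That of Wsb1 also ends without CHZ-wash replicate 2, where no gene was called higher. None of the receptor, ligase partner, SOCS box or other regulator genes was called after ruxolitinib washout, where 0.0229% of all genes were called.

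**Figure D4:**
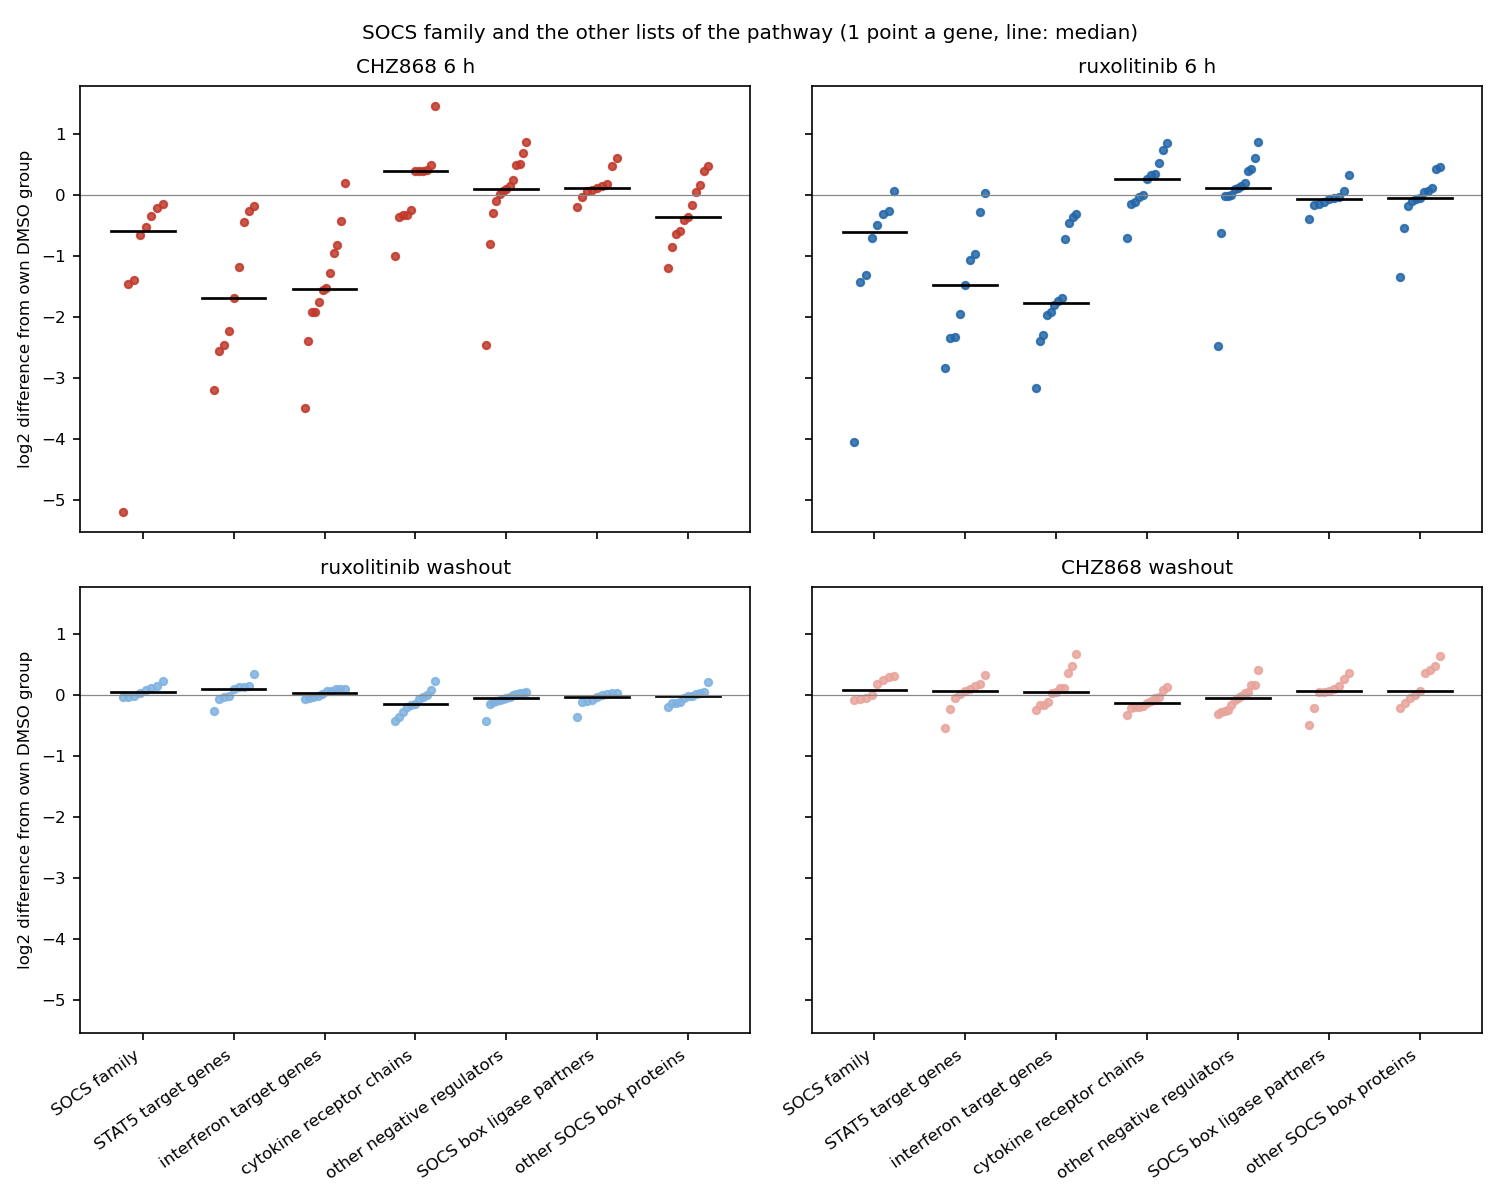
Log2 difference from the own DMSO group (vertical axis) of every listed gene of 7 lists (horizontal axis), 1 point a gene and a line at the list's median, in 4 panels for 4 comparisons. At 6 h the medians of the STAT5 and the interferon target lists lie below 0 (-1.69 and -1.55 with CHZ868), the SOCS family spans from -5.20 to -0.16 with CHZ868 and from -4.06 to 0.07 with ruxolitinib, and in both washout panels the medians of all lists lie near 0.

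Each member was also set beside the genes whose 4 differences (CHZ868 and ruxolitinib at 6 h, ruxolitinib and CHZ868 washout) were closest to its own, by Euclidean distance in log2 units among 9973 genes. The nearest genes to Cish were Frmd6 (distance 0.080), Col6a1 (0.116) and Podxl (0.146). Socs1 had no close neighbour, the nearest being Tgtp1, an interferon-induced GTPase gene, at a distance of 0.74 (-4.74 with CHZ868 and -4.51 with ruxolitinib), then Ripk3 (1.08) and Gm5970 (1.16). Col6a1 was also the nearest to Socs3 (0.128), followed by Nxpe5 (0.164) and Gm32856 (0.180). For Socs2 they were Ifrd2, Axl and Atad3a (0.077 to 0.110), for Socs4 Gpbp1, Clp1 and Rheb (0.037 to 0.059), and for Socs5 Exosc2, Dusp28 and Trappc4 (0.082 to 0.093). For Socs6 they were Pik3ip1, Mrps23 and Selenos (0.033 to 0.061), and for Socs7 Etv3, Oga and Pdik1l (0.036 to 0.066). Distances are small where differences are small, as most genes then lie close together.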

How the data were processed

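RNA of 21 libraries (7 groups of 3, assigned from the labels) was analysed. The deposited values are log2 CPM, made by the authors with edgeR after a filter on low expression and TMM normalization. The study's methods name kallisto and GRCm38, while the submitters' processing notes name STAR 2.7.3a, edgeR 4.0.16 and GRCm39, and which applies to which table is not given in the sources used here. The 4 tables were normalized separately, so tests were run within tables. No deposited column was left unused (0 columns).

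Comparisons were fitted by limma-trend (limma 3.58.1, R 4.3.3) on the deposited log2 CPM of the 2 groups compared, with p-values adjusted by Benjamini-Hochberg over every gene of the table (threshold 0.05). Differences between effects were fitted on 12 libraries over the genes that both tables hold. Fold changes are on the log2(CPM + constant) scale and understate low genes. Whole reads (within 0.1) were recovered by removing the constant, and folds from summed reads have exact 95% binomial intervals that cover counting error only. The ruxolitinib 6 h difference is a description, with no test, because its groups lie in tables that were normalized separately. Near copies were found with BLAST+ 2.17.0 (at least 85% identity over 100 bases). Promoters came from RefSeq (GRCm38.p6), which matched 4 of the 8 members. Fits were tested on simulated data. Samples with the same replicate number did not deviate together, so the main fits have no block.

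The members, lists and alternatives were chosen with earlier results of these data known. All members are named. The list of JAK and STAT genes is not reported here. Of each pathway list at most 3 genes are named, those with the largest difference among those past the threshold with CHZ868 at 6 h, and of each member the 3 nearest genes. Alternatives tried were a fit with the replicate block, one without the mean-variance trend, limma-voom on recovered reads, quantile normalization, median centring, a pseudocount of 1 or 5 CPM before the logarithm, a minimum mean of 1 or 3 log2 CPM, and fits with each library left out.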

Additional observations from a re-analysis of the deposited data

Results flagged for a closer look

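The CHZ868 effect at 6 h and the CHZ868 effect after washout differed for all 8 members by a test of the difference itself (limma, adjusted p from 5.15e-08 to 0.0211). The effect at 6 h minus the effect after washout, in log2 units, was -5.15 for Socs1, -1.39 for Cish, -1.39 for Socs3, -0.71 for Socs5, -0.60 for Socs2, -0.59 for Socs6, -0.53 for Socs7 and -0.48 for Socs4. For Socs4 the CHZ868 effects had opposite signs, at -0.16 and 0.32, and neither passed the threshold by itself. Washing, exposure time and experiment cannot be told apart in these differences. Groups hold 3 libraries, so no library was tested as an outlier within its group.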

How the results depend on the processing

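The number of members called was 6 with CHZ868 at 6 h, 0 in both washouts and for their difference, and 8 for the difference between the CHZ868 effects, and it stayed within 1.5 times of these under the alternatives, except in the CHZ868 washout. There quantile normalization called 1 member, and leaving out one library gave 0 to 1. Over all genes, the calls fell from 457 to 0 in the CHZ868 washout without the mean-variance trend (2562 genes at an unadjusted p under 0.05, against 2767), and from 191 to 14 for the difference between washouts, and rose from 3 to 9 in the ruxolitinib washout. With one library left out they ranged from 0 to 1426, from 5 to 628 and from 0 to 1 in these comparisons. The highest values came when replicate 3 (1426 and 530) or replicate 2 (1298 and 628) of the DMSO-wash group beside CHZ-wash was left out. With the replicate number as a block the calls were 0 in the ruxolitinib washout, 6 for the difference between washouts, 539 in the CHZ868 washout and 6192 with CHZ868 at 6 h, and the block changed no member's call. The numbers did not pair the samples, as same-numbered samples correlated between -0.054 and 0.051.

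Signs turned only where values were near 0. In the ruxolitinib washout, leaving out one library moved Socs2 between -0.041 and 0.107, Socs3 between -0.129 and 0.098, Socs4 between -0.073 and 0.017, Socs6 between -0.091 and 0.194 and Socs7 between -0.125 and 0.031. In the CHZ868 washout it moved Cish between -0.048 and 0.029, Socs2 between -0.109 and 0.001 and Socs3 between -0.195 and 0.054, and quantile normalization gave Cish 0.03. For the difference between washouts it moved Socs3 between -0.07 and 0.179 and Socs5 between -0.101 and 0.019. The cause was not tested. With log2(CPM + 5) the difference of Socs1 was -2.36 with CHZ868 and -2.19 with ruxolitinib at 6 h, and that of Socs3 -0.79 and -0.77, since a larger constant shrinks the differences of low genes. At 1 to 16 reads per library, the Socs1 level in both 6 h inhibitor groups is limited by depth.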

Other observations

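The DMSO-wash groups of the 2 washout experiments, whose tables were normalized separately, gave different levels of the family. The level in the ruxolitinib experiment minus that in the CHZ868 experiment was -3.02 log2 units for Socs4 (3.48 against 6.50 log2 CPM), -2.41 for Cish (4.66 against 7.06) and -1.81 for Socs7 (3.41 against 5.22), and between -1.13 and -0.25 for the other members. Over the 10078 genes that both tables hold, the median was -0.68 and the 5th and 95th percentiles were -2.53 and 1.78, so Socs4 lay outside this range and the other members inside it. Whole reads were recovered from the table of the CHZ868 experiment and not from that of the ruxolitinib experiment. Experiment, counting and normalization cannot be told apart here, and the levels of the washout groups were therefore tested within tables only.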
